A study of Homo sapiens with 8 samples.

Results

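The comparison of control siRNA with mock electroporation in SEM cells asked which transcripts differ when a non-targeting siRNA is delivered, set against the same electric pulse without siRNA. It rests on 4 of the 8 arrays of the series, chosen by their labels: control siRNA (siCtrl) on day 2 and day 4, and the pulse control (MOCK) on day 2 and day 4, all on the older of the 2 Illumina array versions used. SEM is an established human leukaemia line of immature B cells with the MLL/AF4 fusion gene, which both groups therefore have. Cells of both groups were electroporated at intervals of 2 days, and day 2 and day 4 were harvested just before the next pulse, so that day 2 follows 1 pulse and day 4 follows 2. The 2 arrays of cells given siRNA against the fusion (siMLL/AF4) on the same days and the same array version entered the estimate of the spread and are quoted beside some values. Each treatment and day had 1 array. Nothing in the labels says that the days came from separate cultures, so the p-values measure only the spread between these arrays, which may be technical. The sequence of the control siRNA was not among the sources used here, and the results hold for 1 cell line.

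Electroporation opens pores in the plasma membrane for a short time, through which small nucleic acids enter the cytosol. A small interfering RNA is loaded into an Argonaute protein, which then finds complementary or partly complementary transcripts, and a control siRNA competes with cellular microRNAs for the same machinery. Double-stranded RNA can also be sensed by Toll-like receptors, by the helicases RIG-I and MDA5 and by the kinase PKR, whose signals lead to interferon and to the interferon-stimulated genes.

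Values are log2 intensities, converted from deposited values that were read as natural logs, and differences are siCtrl minus MOCK, so that a difference of 1 is 2-fold. Of 39421 probes, between 28.5% and 28.7% had no value on any 1 of these arrays, and 9668 genes were tested. The arrays had the same median, 5.16, and Spearman correlations between pairs of the 6 arrays lay between 0.903 and 0.925. Of 10 B-cell precursor markers listed in the probe annotation, 8 had a value on all 4 arrays. Linear intensities were summed over all listed markers with a value on that array, so arrays can differ in the genes summed. The B-cell precursor sums were 8700.0 and 8260.1 on the siCtrl arrays and 12691 and 8268 on the MOCK arrays. DNTT and CD24 had no value on the MOCK array of day 4. Among markers of other cell types, 2 of 9 myeloid markers (LYZ and CSF1R), 1 of 7 T and NK cell markers (NKG7) and 0 of 5 erythroid and megakaryocyte markers had a value on all 4 arrays. The myeloid sums were 377 and 718 on the siCtrl arrays and 402 and 675 on the MOCK arrays. The T and NK sums were 417 and 466 on the siCtrl arrays and 800.4 and 677 on the MOCK arrays. The erythroid and megakaryocyte sums were 21.4 and 35.4 on the siCtrl arrays and 28.5 and 26.6 on the MOCK arrays. The part of other cells or of cell composition in the differences was not tested, and fewer cells of a type and less RNA per cell cannot be told apart in bulk RNA.

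Genes that were higher with control siRNA included long genes for nuclear envelope, chromatin and centrosome proteins, such as SYNE2, PHIP and CEP350, and genes that were lower included short genes such as MPV17L2 and MOSPD3. The direction repeated on both days for most genes: 3219 of 9668 (33.3%) were higher on both days and 3831 (39.6%) were lower on both, together 72.9%. At least 2-fold on both days were 476 genes (4.92%), of which 309 (3.20%) were higher and 167 (1.73%) lower. That count was 93 (79 higher, 14 lower) with an offset of 64, and 105 if the values, whose log base was inferred, are read as base 2. Both siCtrl arrays lay above both MOCK arrays for 2471 genes (25.6%) and below both for 3022 (31.3%). With limma, 0 genes (0.0%) passed an adjusted p of 0.05, the smallest being 0.172. Without adjustment, 2084 genes (21.6%) had a limma p under 0.05, of which 1169 (12.1%) were higher and 915 (9.46%) lower, beside the 483.4 that chance alone would give. That count was 838 without MOCK of day 2 and 930 (461 higher, 469 lower) without siCtrl of day 2. The adjusted count differed between settings. It was 821 (8.49%), 587 higher (6.07%) and 234 lower (2.42%), with a variance that was both trended with intensity and estimated robustly, 543 with a filter at the 70th percentile of probes, and 871 with 64 added to the linear values. It stayed at 0 with offsets of 1 and 16, with no filter and with low values set to the 25th percentile. The words "higher" and "lower" therefore describe measured values that did not pass the adjusted test as designed.

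The 2 days share no array, but the labels do not say that they came from separate cultures. Repetition between them is therefore a description and not independent replication. On day 2, 2082 genes (21.5%) were at least 2-fold apart, 1218 (12.6%) higher and 864 (8.94%) lower. On day 4 there were 1280 (13.2%), 637 (6.59%) higher and 643 (6.65%) lower. The genes that were 2-fold the same way on both days made up 22.9% of the day 2 list and 37.2% of the day 4 list. Across genes, which are not independent replicates, the differences of day 2 and day 4 had a Pearson correlation of 0.42 and a Spearman correlation of 0.54. When the genes were split into tertiles by mean level, the Pearson correlation was 0.75 in the brightest, 0.66 in the middle and 0.27 in the dimmest tertile. In the brightest tertile, 52 genes were at least 2-fold higher on both days and 4 were at least 2-fold lower. Within a treatment, 1400 genes were at least 2-fold apart between day 4 and day 2 with siCtrl and 755 with MOCK.

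**Figure D1:**
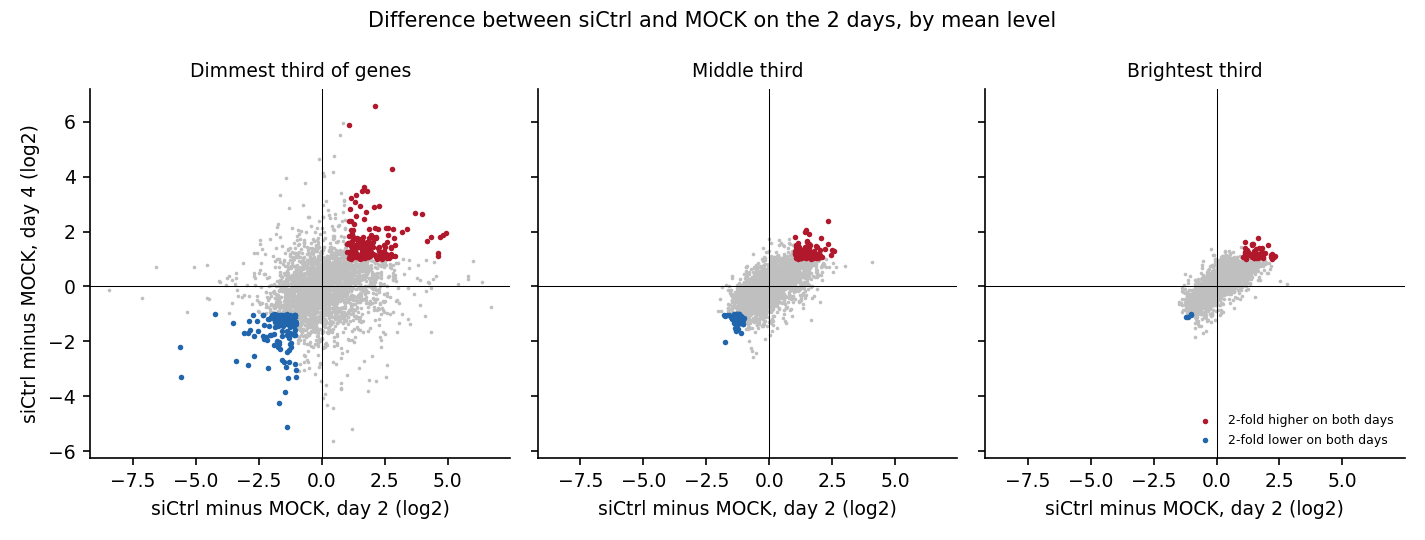
Each point is a gene, with its difference siCtrl minus MOCK (log2) on day 2 on the horizontal axis and on day 4 on the vertical axis, in 3 panels from the dimmest to the brightest genes. Red and blue points are at least 2-fold higher or lower on both days. The bright genes lie along a diagonal and hold 52 red and 4 blue points, whereas the dim genes scatter widely.

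Of the 52 bright genes at least 2-fold higher on both days, the 8 with the largest smaller-day difference are described. PHIP, a bromodomain protein that recruits a ubiquitin ligase to chromatin, had 10.91 and 10.98 on the siCtrl arrays of day 2 and day 4, against 9.28 and 9.20 on the MOCK arrays. The 2 siCtrl values lay far above the 2 MOCK values, and the mean difference was 1.71 ± 0.10 (SD, n = 2 days), or 3.27-fold, with a limma adjusted p of 0.172. With the trended robust variance the adjusted p of PHIP was 0.00555, and over all settings it lay between 0.00391 and 0.412. CEP350, a centrosomal protein that anchors microtubules, had 10.92 and 10.00 with siCtrl and 8.86 and 8.50 with MOCK. EP400, the ATPase of a complex that places histone variants, had 10.45 and 10.44 with siCtrl and 8.99 and 8.90 with MOCK. ASXL2, a Polycomb-associated chromatin protein, had 11.35 and 10.76 with siCtrl and 9.67 and 9.36 with MOCK. All 3 had both siCtrl arrays above both MOCK arrays, with differences of 1.40 to 2.05 on single days. ASPM, a spindle-pole protein of dividing cells, had 12.32 and 12.03 with siCtrl and 10.50 and 10.61 with MOCK, a mean difference of 1.62 ± 0.28. KIF5B, the heavy chain of conventional kinesin, had 11.57 and 10.91 with siCtrl and 10.17 and 9.38 with MOCK. DEPDC1, a gene expressed in proliferating cells, had 10.26 and 10.15 with siCtrl and 8.70 and 8.79 with MOCK. These 3 motor and division genes also did not overlap between the groups. NBPF10 had 11.98 and 11.40 with siCtrl and 10.57 and 9.86 with MOCK, but it belongs to a family of near-identical copies that its probe may not separate. On the siMLL/AF4 arrays, whose comparison shares the MOCK arrays, PHIP lay 1.10 and 1.07 above MOCK, EP400 1.14 and 1.10, KIF5B 1.11 and 1.26, ASPM 0.71 and 0.89 and CEP350 0.55 and 1.00.

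The bright genes that were lower on both days differed by less, about 2-fold each, and several belong to mitochondria, peroxisomes or the cell surface. S1PR4, a sphingosine-1-phosphate receptor of lymphoid cells, had 9.06 and 9.01 with siCtrl and 10.21 and 10.12 with MOCK. Its mean difference was -1.13 ± 0.02 (SD, n = 2 days), with a limma adjusted p of 0.172 and 0.0140 with the trended robust variance, in a range of 0.0113 to 0.58 over all settings. SDHC, a membrane subunit of succinate dehydrogenase, had 9.01 and 9.19 with siCtrl and 10.21 and 10.30 with MOCK, and 1 of its 2 probes was lower on both days. MPV17, an inner mitochondrial membrane protein, had 9.26 and 9.23 with siCtrl and 10.38 and 10.21 with MOCK. In each of these 3 genes the days gave similar differences and the groups did not overlap. PXMP2, a related channel protein of peroxisomes, had 10.45 and 10.46 with siCtrl and 11.61 and 11.42 with MOCK. THOC6, a subunit of the complex that couples transcription to mRNA export, had 9.04 and 9.16 with siCtrl and 10.07 and 10.20 with MOCK. HSPB7, a small heat shock protein known mainly from heart muscle, had 9.88 and 9.70 with siCtrl and 10.89 and 10.72 with MOCK. Each differed by between -1.16 and -0.95 on either day. GCHFR, the feedback regulator of GTP cyclohydrolase, had 9.86 and 9.58 with siCtrl and 10.81 and 10.58 with MOCK. HLA-DRB4, an MHC class II beta chain whose probe may also read its close relatives, had 9.35 and 9.68 with siCtrl and 10.37 and 10.62 with MOCK, and 1 of its 2 probes was lower on both days. These 8 lower and 8 higher bright genes were chosen for a large smaller-day difference, so their lack of overlap is given as a description.

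**Figure D2:**
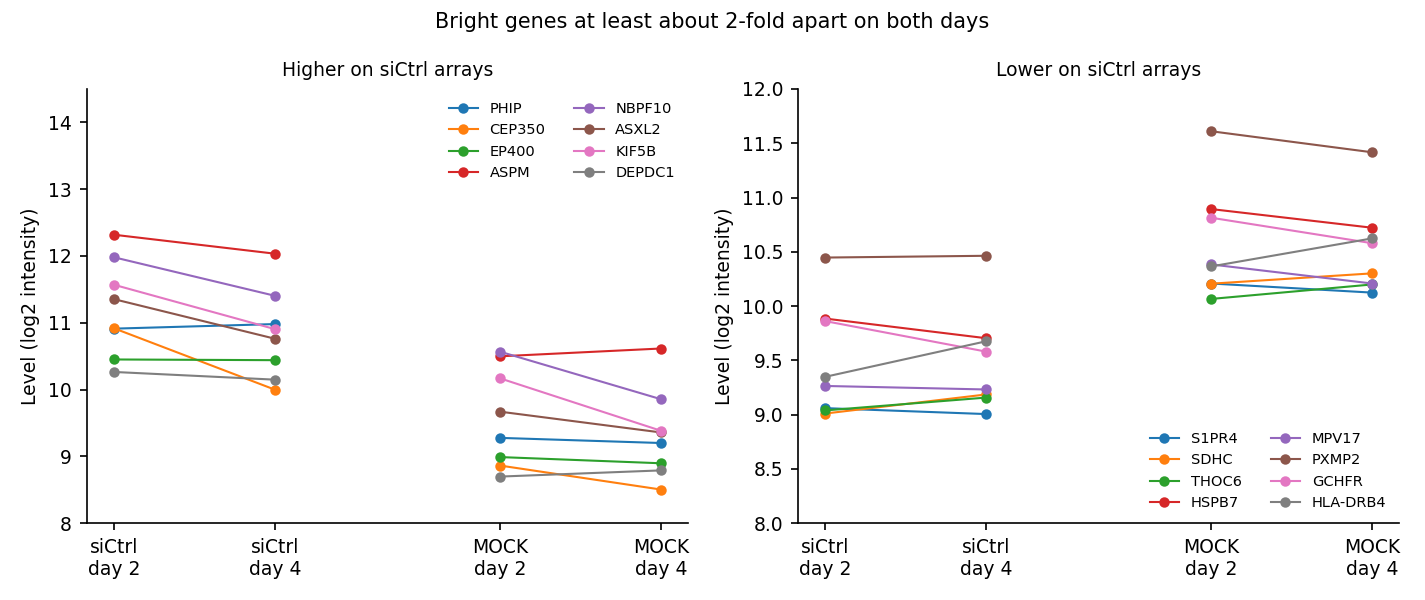
Levels (log2 intensity, 1 array per point) of 8 bright genes higher on the siCtrl arrays (left panel) and 8 that were lower (right panel), with siCtrl of day 2 and day 4 left of MOCK of day 2 and day 4. Lines join the days of 1 treatment. PHIP and EP400 stay flat within each treatment, and in each gene shown the siCtrl points lie on 1 side of the MOCK points.

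Over all levels, the largest differences that held on both days included very long genes on the higher side. SYNE2, a giant nuclear envelope protein that links the nucleus to the cytoskeleton and whose gene spans 464854 bases, had 8.74 and 8.45 with siCtrl and 6.39 and 6.06 with MOCK, 5.17-fold. Of its 3 probes 2 were higher on both days and none lower. PRKCA, protein kinase C alpha, spans 508131 bases and had 7.36 and 7.31 with siCtrl and 5.14 and 5.21 with MOCK, 4.47-fold. Both genes had steady levels within each treatment, and their adjusted p was 0.172 in the designed fit and 0.00555 and 0.00965 with the trended robust variance. Over all settings it lay between 0.00391 and 0.371 for SYNE2 and between 0.00615 and 0.373 for PRKCA. ATP13A3, a polyamine transporter, had 8.28 and 6.67 with siCtrl and 6.03 and 3.73 with MOCK. CEP290, a protein of the ciliary transition zone, had 6.72 and 5.90 with siCtrl and 4.16 and 3.76 with MOCK. ZDHHC21, a palmitoyltransferase, had 6.20 and 5.91 with siCtrl and 3.42 and 1.63 with MOCK. In these 3 genes the MOCK array of day 4 was dim, so their folds depend on weak signals. The same holds for MOB1B, an activator of the LATS kinases of the Hippo pathway, which had 5.93 and 5.00 with siCtrl and 2.22 and 2.31 with MOCK. The zinc finger genes SCAND3 (differences of 2.14 and 1.81), ZKSCAN8 (1.88 and 2.10) and ZNF610 (3.96 and 2.65) were among those with the smallest unadjusted p. NFIA, a transcription factor that spans 385562 bases, differed by 2.82 and 2.11, C1GALT1, which starts the core of O-linked glycans, by 2.61 and 2.15, and KIF27, a kinesin-4 relative, by 3.36 and 2.10. DHX57, an RNA helicase family member, differed by 2.13 and 6.59, and the pseudogene SDHAP4 by 2.11 and 2.12. Both MOCK values of ZNF610, NFIA, C1GALT1 and KIF27 lay under the filter level of 3.93. So did the MOCK values of DHX57 on day 4 (-0.28) and of SDHAP4 on day 2 (3.65). With an offset of 64, the mean differences of NFIA and C1GALT1 were 0.46 and 0.40.

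On the lower side, the 8 genes with the smallest p had a median length of 8.13 kb, against 89.7 kb for the 8 on the higher side, and many probes were dim. MPV17L2, a mitochondrial ribosome assembly factor of 3731 bases, had 5.07 and 5.59 with siCtrl and 7.36 and 7.52 with MOCK, 4.32-fold lower. MOSPD3, a membrane contact protein of 3216 bases, had 6.63 and 6.69 with siCtrl and 8.38 and 8.70 with MOCK, and its 2 probes were both lower on both days. PPT2, a lysosomal thioesterase, had 5.24 and 5.63 with siCtrl and 7.47 and 7.46 with MOCK. These 3 had adjusted p-values of 0.172 in limma and of 0.0111, 0.00674 and 0.0110 with the trended robust variance, and over all settings they lay between 0.00664 and 0.412 for MPV17L2, 0.00446 and 0.709 for MOSPD3 and 0.00688 and 0.412 for PPT2. HEXA, the alpha subunit of lysosomal hexosaminidase, had 4.62 and 3.85 with siCtrl and 6.50 and 5.97 with MOCK. ABHD14B, a small hydrolase, had 5.10 and 4.89 with siCtrl and 6.79 and 6.98 with MOCK, and GPANK1 had 3.54 and 4.32 with siCtrl and 6.22 and 6.13 with MOCK. PRAME, a tumour antigen expressed in leukaemias, had 0.51 and 2.32 with siCtrl against 6.09 and 5.63 with MOCK, while the siMLL/AF4 arrays had 5.29 and 4.43. The siCtrl values of PRAME lie under the filter level of 3.93, so no fold is given, and its difference of -4.44 was -0.87 with an offset of 64. For PRAME the siCtrl arrays were lower than the arrays of both other treatments. ETV3 (differences of -5.63 and -2.22), BRME1 (-3.43 and -2.74), TUBB4A (-2.93 and -2.87), NPTXR (-2.69 and -2.55), DCLK1 (-2.13 and -2.97), DSCAM (-2.34 and -1.82) and ZBTB11 (-2.19 and -1.93) completed the list, with MOCK levels between 4.61 and 6.28. Their siCtrl levels lay between -0.58 and 3.93, at or under the filter level, so these differences also rest on weak signals. DCLK1 and DSCAM are long genes, of 363288 and 836160 bases.

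Some of the widest gaps belonged to 1 day alone. On day 2, BCORL1, a transcriptional corepressor, differed by 6.72 and on day 4 by -0.75, and ADAM19, a membrane metalloprotease, differed by 6.36 and 0.15. HAUS6, a subunit of the augmin complex of the spindle, differed by 6.02 and 0.91, TRIM36 by 5.82 and 0.29 and ERV3-1 by 5.78 and 0.40. In the first 3 of these genes the MOCK array of day 2 had values of -0.31, -0.01 and 0.21, against 6.01, 3.96 and 4.00 on the MOCK array of day 4, so 1 array set each gap. The widest difference of day 2 was that of IFT43, a subunit of the transport complex of cilia, with -8.43 and -0.15, and it rested on a siCtrl value of -3.19 on day 2, next to 5.65 on day 4. Without that array the fitted difference of IFT43 was 0.12. PHYHD1 (-7.14 and -0.40) and ZNF526 (-6.57 and 0.71) likewise had 1 low siCtrl array, that of day 2. Wide positive differences on day 4 were those of SIPA1L2 (0.84 and 5.97), the mismatch repair gene PMS1 (1.06 and 5.89), MAP3K21 (0.71 and 5.52) and the deubiquitinase USP47 (0.47 and 4.74). Their MOCK array of day 4 had -0.01, 1.03, -0.60 and 1.62. Wide negative differences were those of TIGD6 (0.43 and -5.64), SIPA1L3 (1.19 and -5.18), PPP1R13L (-1.40 and -5.13), SLX1B (0.44 and -4.44) and the protease KLK7 (0.21 and -4.31). Their siCtrl array of day 4 had -0.22, 0.79, 1.22, 2.27 and 1.03. Here, too, 1 low array set each gap. Opposite signs with at least 2-fold on each day were found for 89 genes (0.921%).

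The genes that answer interferon showed no shared direction. Of 42 tested members, 13 were higher and 18 lower on both days, against 33.3% and 39.6% of all genes, and the medians were -0.20 on day 2 and 0.03 on day 4, beside -0.10 and -0.02 over all genes. No member passed the adjusted test. At an unadjusted limma p under 0.05, 5 were higher and 4 lower, beside 12.1% and 9.46% of all genes. Many promoters of such genes hold the interferon-stimulated response element, and the promoters of 2 members that were higher and 2 that were lower are shown because all 4 carry it. They are RefSeq sequences of GRCh38.p14, 300 bases around the start of the gene, read 5′ to 3′ on the gene's strand. Capitals mark each match, on either strand and with overlaps, to the letters GAAA, any 2 bases and GAAA. IFIT5 lies at chr10:89414318-89414617 (plus strand), SAMD9 at chr7:93117930-93118229 (minus), IFIT1 at chr10:89392373-89392672 (plus) and ISG15 at chr1:1013247-1013546 (plus).
IFIT5: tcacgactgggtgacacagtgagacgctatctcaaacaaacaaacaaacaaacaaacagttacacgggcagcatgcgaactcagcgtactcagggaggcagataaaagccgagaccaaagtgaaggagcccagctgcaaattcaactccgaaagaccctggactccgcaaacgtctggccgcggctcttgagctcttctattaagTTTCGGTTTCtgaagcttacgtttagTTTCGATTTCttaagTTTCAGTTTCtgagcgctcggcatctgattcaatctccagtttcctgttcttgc
SAMD9: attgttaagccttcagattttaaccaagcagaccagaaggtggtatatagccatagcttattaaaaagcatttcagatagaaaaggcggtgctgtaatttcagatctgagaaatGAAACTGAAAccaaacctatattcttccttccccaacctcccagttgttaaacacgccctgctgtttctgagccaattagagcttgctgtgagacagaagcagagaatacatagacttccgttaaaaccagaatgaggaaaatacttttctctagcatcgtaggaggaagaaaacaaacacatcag
IFIT1: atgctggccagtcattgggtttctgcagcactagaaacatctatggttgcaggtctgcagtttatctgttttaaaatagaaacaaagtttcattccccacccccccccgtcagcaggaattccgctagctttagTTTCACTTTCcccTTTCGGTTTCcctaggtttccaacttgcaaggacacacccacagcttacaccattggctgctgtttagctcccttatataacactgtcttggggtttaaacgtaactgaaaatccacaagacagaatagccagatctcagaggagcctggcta
ISG15: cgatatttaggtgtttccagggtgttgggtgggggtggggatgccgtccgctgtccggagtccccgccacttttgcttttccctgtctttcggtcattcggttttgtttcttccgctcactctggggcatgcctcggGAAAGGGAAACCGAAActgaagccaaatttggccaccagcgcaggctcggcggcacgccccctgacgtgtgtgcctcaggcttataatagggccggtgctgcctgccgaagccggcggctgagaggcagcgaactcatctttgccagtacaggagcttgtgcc
The window held 3 matches in IFIT5, 1 in SAMD9, 2 in IFIT1 and 2 in ISG15. Such a match was found in 22 of the 35 tested interferon genes with a listed promoter (62.9%) and in 3.65% of all 27305 promoters listed.

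Levels of these 4 genes went different ways. IFIT5, an RNA-binding effector, had 5.89 and 6.44 with siCtrl and 4.20 and 5.02 with MOCK. SAMD9, an antiviral translation inhibitor, had 10.72 and 9.81 with siCtrl and 9.19 and 8.56 with MOCK. Those 2 were the 2 members at least 2-fold higher on both days, and no member was at least 2-fold lower on both. IFIT1, which binds viral RNA caps, had 2.33 and 5.33 with siCtrl and 4.43 and 5.73 with MOCK. ISG15, a ubiquitin-like modifier and a common readout of interferon, had 6.14 and 7.78 with siCtrl and 8.08 and 8.24 with MOCK. IFIT1 differed by -2.10 and -0.40 and ISG15 by -1.94 and -0.46, so both were far apart on day 2 alone. The GTPase MX1 differed by 1.22 and 0.54, OAS3, which makes the activator of RNase L, by 0.67 and 1.04, PARP14 by 1.06 and 0.55, and SAMD9L, the neighbour and relative of SAMD9, by 1.20 and 0.95. IFITM2 (-1.12 and -0.84), IFITM1 (-0.64 and -0.89) and BST2 (-0.85 and -0.72), which are short genes for membrane proteins that restrict viruses, were lower.

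Sensors of foreign nucleic acid gave a similar mixture, with 6 of 24 higher and 10 lower on both days, beside 33.3% and 39.6% of all genes. Their medians were -0.23 and -0.22. TLR3, the endosomal receptor for double-stranded RNA, had 6.01 and 6.14 with siCtrl and 4.82 and 4.27 with MOCK, and 6.15 and 5.93 with siMLL/AF4. It was the 1 sensor at least 2-fold apart on both days. EIF2AK2, the kinase PKR, had 10.48 and 10.97 with siCtrl and 10.06 and 9.90 with MOCK. The cytosolic sensors RIGI (0.92 and 0.19) and IFIH1, which encodes MDA5 (0.19 and 0.54), and the kinase TBK1 (0.27 and 0.89) differed by less. ZBP1, a sensor of Z-form nucleic acid, had 5.33 and 5.46 with siCtrl and 6.24 and 6.48 with MOCK. TLR9, the receptor for unmethylated CpG DNA, had 6.17 and 5.90 with siCtrl and 6.99 and 6.61 with MOCK. The adaptor MYD88 (-0.65 and -0.68) and the factors IRF3 (-0.79 and -0.57) and IRF7 (-0.89 and -0.19) were lower.

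The machinery of RNA interference leaned to the higher side. Of 27 tested members, 18 were higher and 5 lower on both days, beside 33.3% and 39.6% of all genes. The medians were 0.49 and 0.28. On the siMLL/AF4 arrays, set against the same MOCK arrays, the medians were 0.47 and 0.18. At an unadjusted limma p under 0.05, 8 were higher and 0 lower with siCtrl, beside 12.1% and 9.46% of all genes. With the trended robust variance 6 members passed and were higher, against 6.07% of all genes. The median length of the tested members was 59.0 kb, against 29.3 kb over all genes, and the part of gene length in the lean of this list was not tested. DICER1, which cuts microRNA precursors, had 11.17 and 10.77 with siCtrl and 10.11 and 9.71 with MOCK, a difference of 1.06 on each day. DROSHA, which cuts the primary transcripts, had 10.38 and 9.49 with siCtrl and 8.48 and 9.07 with MOCK, and XPO5, which exports the precursors, had 9.18 and 8.71 with siCtrl and 7.92 and 7.78 with MOCK. Both siCtrl arrays were above both MOCK arrays in these 3 chosen members, as in 25.6% of all genes. Among the Argonautes, AGO1 differed by 1.38 and 0.50, AGO3 by 0.26 and 0.20, AGO4 by 1.51 and 0.08, and AGO2, the member that cleaves targets, by -0.14 and 1.15. Among the factors that decay targeted mRNA, the decapping enzyme DCP2 had 12.50 and 11.27 with siCtrl and 10.31 and 10.09 with MOCK. CNOT1, the scaffold of the deadenylase complex, had 13.24 and 12.60 with siCtrl and 11.67 and 11.53 with MOCK, and the exonuclease XRN1 had 9.87 and 8.97 with siCtrl and 7.92 and 8.03 with MOCK. For these 3 decay factors, too, both siCtrl arrays were above both MOCK arrays, as in 25.6% of all genes. TNRC6C, a scaffold that joins Argonaute to the deadenylases, differed by 2.18 and 1.00, and TSN, part of a nuclease that clears the passenger strand, by 0.52 and 2.64, both from dim probes. DGCR8, the partner of DROSHA, differed by 0.39 and 0.24, and the helicase MOV10 by -0.69 and -0.48.

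**Figure D3:**
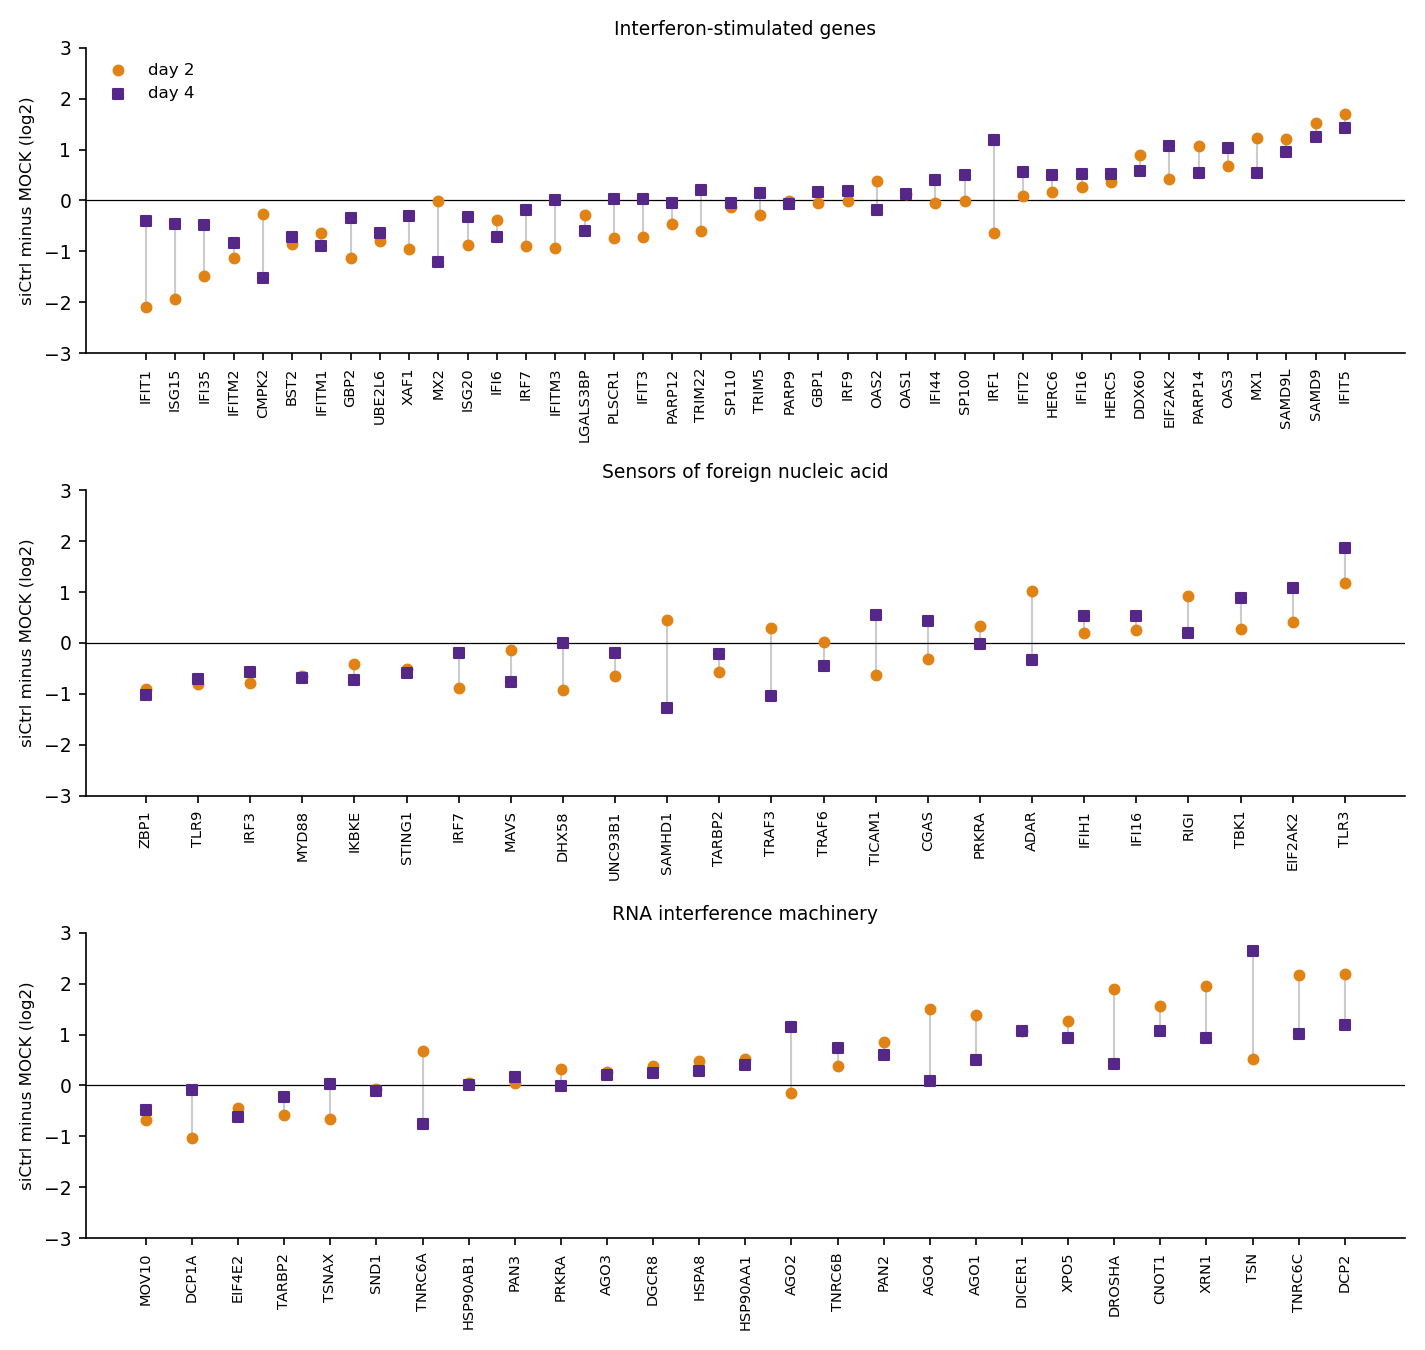
Differences siCtrl minus MOCK (log2) on day 2 (circles) and day 4 (squares) for every tested gene of 3 lists, each ordered by its mean difference. Interferon-stimulated genes and nucleic acid sensors spread to both sides of 0, with IFIT5 and TLR3 highest, and most genes of the RNA interference machinery lie above 0.

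Genes of inflammation and stress were mostly near or below the median of all genes. Over all genes, 33.3% were higher and 39.6% lower on both days. Of 19 tested NF-kB targets and cytokines, 2 were higher and 10 lower on both days, with medians of -0.49 and -0.29. CD40, a receptor of B cells that signals to NF-kB, had 2.55 and 4.82 with siCtrl and 5.65 and 6.50 with MOCK, and RELB, a subunit of NF-kB, had 6.54 and 6.47 with siCtrl and 7.92 and 7.19 with MOCK. The related subunit REL differed by -1.17 and -0.72. Immediate early genes gave 9 higher and 11 lower of 24, with medians of -0.12 and -0.15. JUNB, a subunit of AP-1, differed by -1.19 and -0.53, the phosphatase gene DUSP2 by -5.36 and -0.94, and MCL1, which blocks apoptosis, by 0.90 and 0.78. Heat shock genes and chaperones gave 15 higher and 5 lower of 24, with medians of 0.15 and 0.23. HSPA4, a co-chaperone of HSP70, had 8.42 and 8.19 with siCtrl and 7.42 and 6.96 with MOCK, whereas HSF1, the heat shock transcription factor, differed by -0.73 and -2.76 and HSPA1L, a relative of HSP70, by -1.51 and -2.75. The integrated stress and unfolded protein responses gave 8 higher and 16 lower of 28 (medians -0.37 and -0.06), tRNA synthetases 8 and 6 of 18 (0.26 and 0.14), and NRF2 targets 5 and 12 of 20 (-0.27 and -0.17).

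Among p53 targets, 10 of 20 were higher and 6 lower on both days, beside 33.3% and 39.6% of all genes. Their medians were 0.15, which was -0.02 with the filter at the 70th percentile, and 0.19. RRM2B, the p53-induced ribonucleotide reductase subunit, had 9.71 and 8.36 with siCtrl and 7.80 and 6.91 with MOCK, and both of its probes were higher on both days. CDKN1A, the p21 inhibitor of the cell cycle, had 11.33 and 11.49 with siCtrl and 12.23 and 12.05 with MOCK. BAX, which permeabilises mitochondria, differed by -0.59 and -1.18 and GADD45B by -1.12 and -1.06. CDKN1A, BAX and GADD45B thus lay on the other side from RRM2B. The BCL2 family gave 6 higher and 6 lower of 15, with medians of -0.18 and 0.09. Of 6 tested metallothioneins and metal-response genes, 5 were lower and 1 higher on both days, with medians of -0.86 and -0.64. MT2A had 9.25 and 9.54 with siCtrl and 10.19 and 10.38 with MOCK, MT1X differed by -1.24 and -0.68, and MTF1, their transcription factor, by -0.79 and -1.99. Membrane repair and lysosome genes gave 4 higher and 15 lower of 27, with medians of -0.33 and -0.21. The lysosomal proteases CTSD (-1.01 and -0.82) and CTSZ (-0.88 and -0.79) were lower, whereas DYSF, which reseals membranes (1.15 and 1.02), and LAMP2, with 5 of 6 probes higher on both days (1.28 and 0.60), were higher. Autophagy genes gave 5 higher and 9 lower of 20, with medians of -0.22 and 0.08, the second being -0.06 with the filter at the 70th percentile.

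Among genes of growth and division, the mitosis list had small median differences. The medians of 44 mitosis genes were 0.10 and 0.10, with 20 higher and 12 lower on both days, beside 33.3% and 39.6% of all genes. At an unadjusted limma p under 0.05, 9 were higher and 0 lower, beside 12.1% and 9.46% of all genes, together 21.6%. CENPF, a kinetochore protein, had 11.33 and 10.69 with siCtrl and 9.65 and 9.75 with MOCK, and CENPE, a kinetochore motor, had 10.62 and 10.72 with siCtrl and 9.66 and 9.66 with MOCK. ECT2, which directs cytokinesis, differed by 1.31 and 0.95 and KIF11, a spindle kinesin, by 1.37 and 0.69. In these 4 chosen genes both siCtrl arrays lay above both MOCK arrays, as in 25.6% of all genes. DNA replication genes gave 17 higher and 14 lower of 40, with medians of 0.05 and 0.03, the second being -0.09 with the mean of the probes and -0.003 with low values set to the 25th percentile. They included CDC7, a kinase that fires origins (1.09 and 0.88), and TK1, thymidine kinase (-0.88 and -0.70). G1 cyclins and CDK inhibitors gave 7 higher and 8 lower of 16, with medians of 0.02, which was -0.31 with the filter at the 70th percentile and -0.03 with an offset of 64, and -0.03. RB1, the retinoblastoma protein, had 11.40 and 10.28 with siCtrl and 10.13 and 9.30 with MOCK.

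Genes of protein turnover and energy metabolism were mostly lower. Of 64 tested subunits of oxidative phosphorylation, 52 were lower and 5 higher on both days, beside 39.6% and 33.3% of all genes. Their medians were -0.46 and -0.24. UQCR10, a subunit of complex III, had 8.99 and 9.34 with siCtrl and 9.90 and 10.28 with MOCK, and its 3 probes were all lower on both days. The dim complex I gene NDUFB1 differed by -0.47 and -1.23. Of 32 proteasome subunits, 27 were lower and 3 higher on both days, with medians of -0.33 and -0.26. The proteasome gene PSMB6 (-1.15 and -0.53) and the immunoproteasome genes PSMB8 (-1.12 and -0.68) and PSMB9 (-0.98 and -0.70) were among them, with 2 of the 4 PSMB8 probes lower on both days. Proteasome genes are short, with a median length of 14.4 kb. Cytosolic ribosomal proteins, whose genes are shorter still with a median of 5.03 kb, did not follow the proteasome, with 28 of 66 lower, 16 higher and medians of -0.001, which was 0.02 after centring, and -0.13. RPS21 differed by -0.78 and -0.73 and RPL29 by -0.69 and -0.76. Ribosome biogenesis gave 8 higher and 12 lower of 31 (medians -0.09 and -0.14), cholesterol synthesis 5 and 9 of 17 (-0.31 and -0.38), with MVK (-1.32 and -0.69), PMVK (-1.25 and -0.63) and EBP (-0.91 and -0.75), and glycolysis 5 and 12 of 21 (-0.34 and -0.12), with ALDOC (-1.27 and -1.01) and GAPDH (-0.71 and -0.62).

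The replication-dependent histone genes differed between the days. Of 25 tested, 22 were higher on day 2, 15 of them at least 2-fold, beside 12.6% of all genes at least 2-fold higher. On day 4, 17 were lower, 4 of them at least 2-fold, beside 6.65% of all genes at least 2-fold lower. The medians were 1.36 and -0.30. On both days 7 were higher and 2 lower, beside 33.3% and 39.6% of all genes. On the siMLL/AF4 arrays, set against the same MOCK arrays, the medians were -0.82 and 0.42. H1-2, a linker histone, was higher on both days, with 6.67 and 6.44 with siCtrl and 4.20 and 5.15 with MOCK, and the core histone gene H2AC8 had 6.39 and 3.93 with siCtrl and 2.18 and 3.78 with MOCK. These genes are near-identical copies that probes may not separate.

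Genes of antigen presentation and of the pre-B cell surface were mostly lower. Of 10 MHC class II genes, 8 were lower and 1 higher on both days, beside 39.6% and 33.3% of all genes. Their medians were -0.56 and -0.57. CD74, the invariant chain, had 13.08 and 12.23 with siCtrl and 13.63 and 13.93 with MOCK, and HLA-DMA, which loads peptides, had 8.94 and 9.47 with siCtrl and 10.00 and 10.18 with MOCK. CIITA, the coactivator that drives these genes, lay on the other side, with 5.63 and 6.65 with siCtrl and 5.18 and 4.92 with MOCK. MHC class I and its loading gave 5 higher and 10 lower of 17, with medians of -0.58 and -0.27. Of 15 genes of the pre-B-cell receptor and surface, 11 were lower and 2 higher on both days, with medians of -0.51 and -0.37. IGLL1, the surrogate light chain, had 9.32 and 7.37 with siCtrl and 10.21 and 8.56 with MOCK, with day 4 below day 2 in both treatments. CD79A, the signalling chain of the receptor, had 10.55 and 11.04 with siCtrl and 11.71 and 11.42 with MOCK, and CD37 differed by -1.20 and -0.86 and VPREB3 by -1.74 and -1.43. B-lineage transcription factors gave 9 higher and 5 lower of 19, with medians of 0.04 and 0.31, although SPIB (-0.93 and -1.23) and the coactivator POU2AF1 (-1.18 and -0.44) were lower.

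Neither siCtrl nor MOCK cells were given siRNA against the fusion, and known targets of MLL/AF4 were mostly higher with control siRNA. Of 23 tested, 19 were higher and 3 lower on both days, beside 33.3% and 39.6% of all genes. Their medians were 0.60 and 0.56, and 5 were at least 2-fold higher on both days, against 3.20% of all genes. The median length of these genes was 136 kb. In the longest quintile of all genes by length, 55.6% were higher on both days, with medians of 0.45 and 0.35. The part of gene length in the lean of this list was not tested. REEP3 had 10.14 and 8.29 with siCtrl and 7.91 and 6.93 with MOCK. CPEB2, an RNA-binding regulator of translation, had 9.41 and 9.30 with siCtrl and 8.00 and 7.87 with MOCK. JMJD1C, a demethylase relative needed by leukaemia cells, had 12.56 and 12.04 with siCtrl and 11.18 and 10.90 with MOCK, and MEF2C, a transcription factor of lymphoid progenitors, had 11.56 and 10.65 with siCtrl and 10.32 and 9.40 with MOCK. ZEB2, a repressor of epithelial genes, differed by 2.13 and 0.65. Apart from these targets, the fusion partner AFF1 was higher on both of its probes. Its brighter probe had 9.92 and 9.09 with siCtrl and 8.50 and 7.75 with MOCK, and the other had 7.50 and 7.39 with siCtrl and 6.01 and 6.07 with MOCK. The siMLL/AF4 arrays had 7.90 and 7.88 on the brighter AFF1 probe and 7.16 and 6.01 on the other. KMT2A, the other partner, had 7.66 and 6.97 with siCtrl and 7.11 and 6.38 with MOCK on its 1 probe. So the probes of AFF1 and KMT2A read higher in siCtrl cells than in cells pulsed without siRNA, by 1.42 and 1.34, 1.49 and 1.32, and 0.55 and 0.59. The medians of the 2 partner genes were 0.99 and 0.97, and their median length was 148 kb. Whether these probes read the native or the fusion transcript was not tested.

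Related lists gave smaller differences. Of all genes, 33.3% were higher and 39.6% lower on both days. RNA polymerase II elongation and DOT1L partners gave 8 higher and 4 lower of 13, with medians of 0.60 and 0.18, including MLLT10, a fusion partner and cofactor of DOT1L (1.51 and 0.61), PSIP1, which tethers the MLL complex to chromatin (1.14 and 0.97), and EAF1 (2.05 and 0.41). Polycomb genes gave 4 higher and 5 lower of 17, with medians of -0.05, which was 0.07 with the mean of the probes, and -0.06. PCGF1, a core Polycomb subunit, was lower on both days (-1.63 and -0.89). Stem and progenitor genes gave 4 higher and 3 lower of 10 (medians 0.04, which was -0.29 without the filter and with low values set to the 25th percentile, and 0.40). Adhesion and trafficking genes gave 6 and 6 of 16 (0.03, which was -0.02 with the mean of the probes, and -0.05). CD44, the hyaluronan receptor, had 12.29 and 12.27 with siCtrl and 11.40 and 11.34 with MOCK, and ITGA4, an integrin subunit, differed by 1.28 and 0.77. Lists of other cell types had few tested members: 3 of 5 myeloid genes (medians -0.28 and -0.72), 3 of 3 T and NK genes (-0.78 and -0.49) and the 1 erythroid and megakaryocyte gene (-0.88, which was 0.10 without the filter, and -0.98) were lower on both days. CST3 differed by -0.82 and -1.53, LYZ by -0.59 and -0.72 and NKG7 by -1.02 and -0.68.

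**Figure D4:**
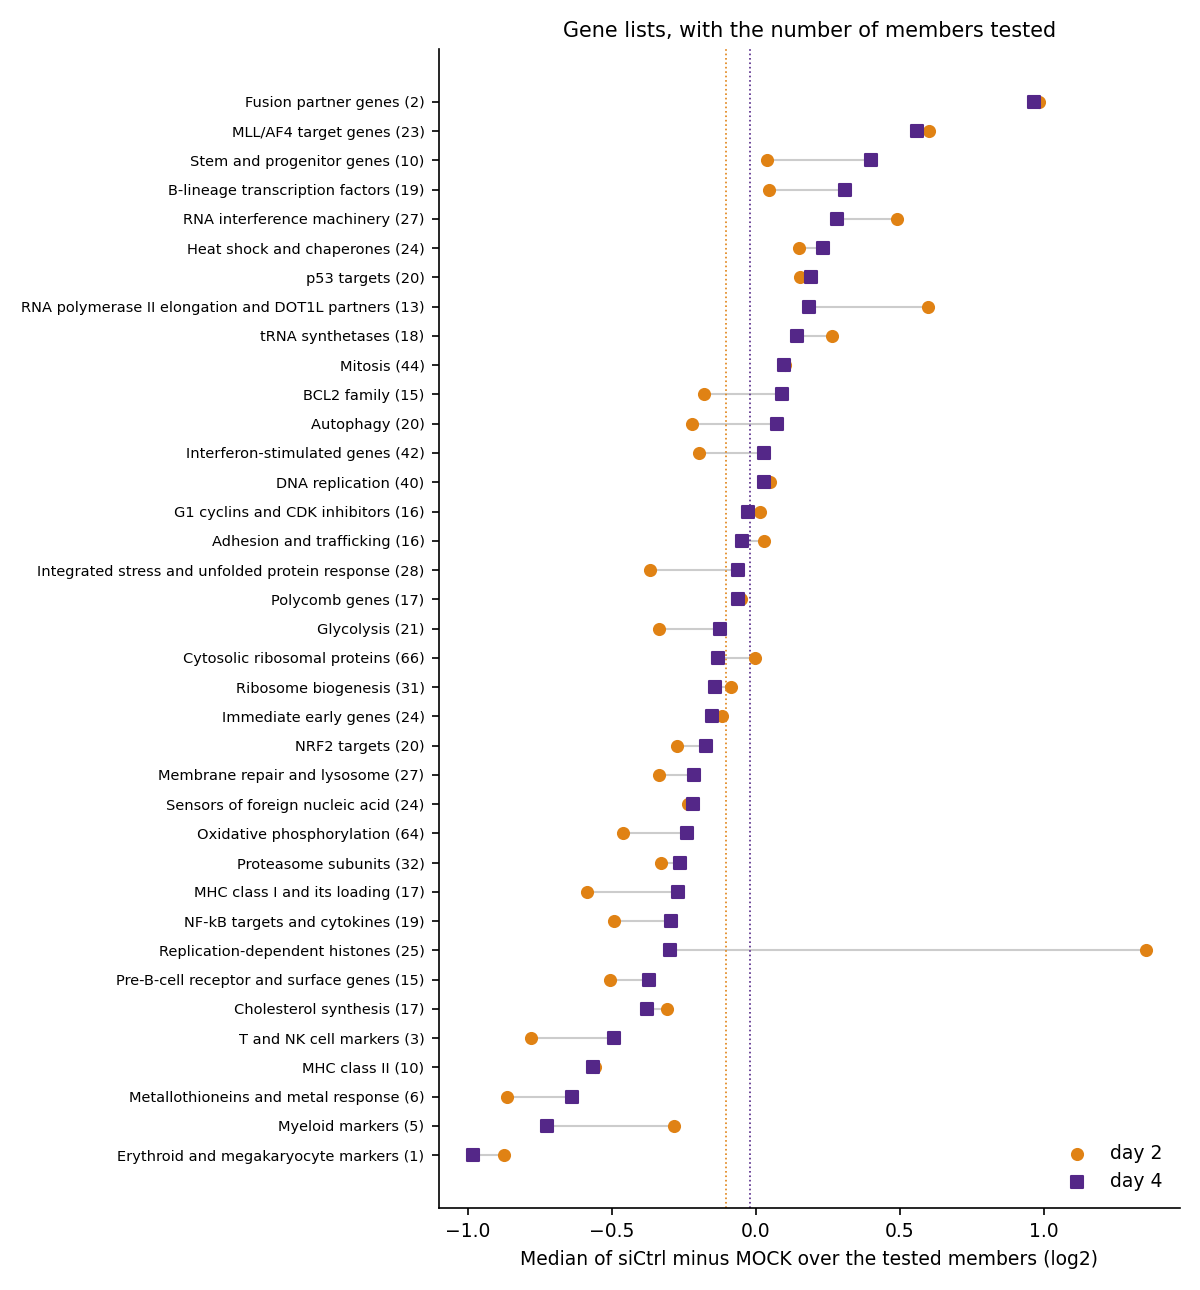
Median of siCtrl minus MOCK (log2) over the tested members of each of 37 gene lists, on day 2 (circles) and day 4 (squares), with the number tested in parentheses and dotted lines at the medians of all genes, -0.10 on day 2 and -0.02 on day 4. MLL/AF4 targets (0.60 and 0.56) and the RNA interference machinery (0.49 and 0.28) lie to the right on both days, and the histones lie at 1.36 on day 2 and -0.30 on day 4.

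Several of the higher lists held long genes and several of the lower lists short ones, a pattern seen in the data and not planned. Not every list followed it. The histone genes, with a median length of 0.493 kb, had medians of 1.36 and -0.30. Membrane repair and lysosome genes, with a median length of 39.0 kb, had medians of -0.33 and -0.21, and autophagy genes (36.2 kb) -0.22 and 0.08. Gene length here is the genomic span in RefSeq, known for 9664 of the genes. In quintiles of length with medians of 4.91, 14.6, 29.3, 56.0 and 146 kb, the median difference on day 2 was -0.50, -0.28, -0.09, 0.15 and 0.45. On day 4 it was -0.32, -0.16, -0.003, 0.18 and 0.35. The difference was thus larger in each longer quintile on both days, and the gap between the longest and the shortest was 0.95 on day 2 and 0.67 on day 4. In the shortest quintile, 239 genes (12.4%) were higher and 1232 (63.7%) lower on both days, whereas in the longest 1074 (55.6%) were higher and 356 (18.4%) lower. The genes at least 2-fold higher on both days had a median length of 91.9 kb and those at least 2-fold lower 13.5 kb, against 29.3 kb over all genes. Of the 309 higher genes, 164 lay in the longest quintile and 8 in the shortest, and of the 167 lower genes, 21 lay in the longest and 67 in the shortest. Within the tertiles of brightness the gap was 0.88 to 1.05 on day 2 and 0.58 to 0.77 on day 4.

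On single arrays, the same measure was lowest on the MOCK arrays. The median level of the longest quintile minus that of the shortest was 0.16 and -0.40 on the siCtrl arrays of day 2 and day 4, -0.02 and -0.62 on the siMLL/AF4 arrays, and -0.86 and -1.07 on the MOCK arrays. The siCtrl and MOCK values did not overlap, with a mean difference of 0.85. An exact permutation test gave a two-sided p of 0.333, which is the smallest that 2 arrays against 2 allow. It ignored the pairing by day and used the values in which the pattern was seen, so it decides nothing. In each treatment day 4 was below day 2. For the differences day 4 minus day 2 within a treatment, the gap between the longest and the shortest quintile was -0.47 with siCtrl. It was -0.62 with siMLL/AF4 and -0.18 with MOCK. The gradient thus also varied between arrays of 1 treatment. Set against the same MOCK arrays, the siMLL/AF4 arrays had a gap of 0.84 on day 2 and 0.43 on day 4. Against the siCtrl arrays their gap was -0.09 and -0.23. The base composition of promoters showed no comparable gradient: in quintiles of promoter GC the medians ran between -0.14 and -0.03 on day 2 and between -0.05 and 0.01 on day 4. RNA quality was checked on a Bioanalyser, per the labels, but neither its values nor a hybridisation batch were given in the sources used here, so a part of RNA quality or of array processing in the length pattern was not tested, and with 1 array per treatment and day these cannot be told apart from the treatment.

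**Figure D5:**
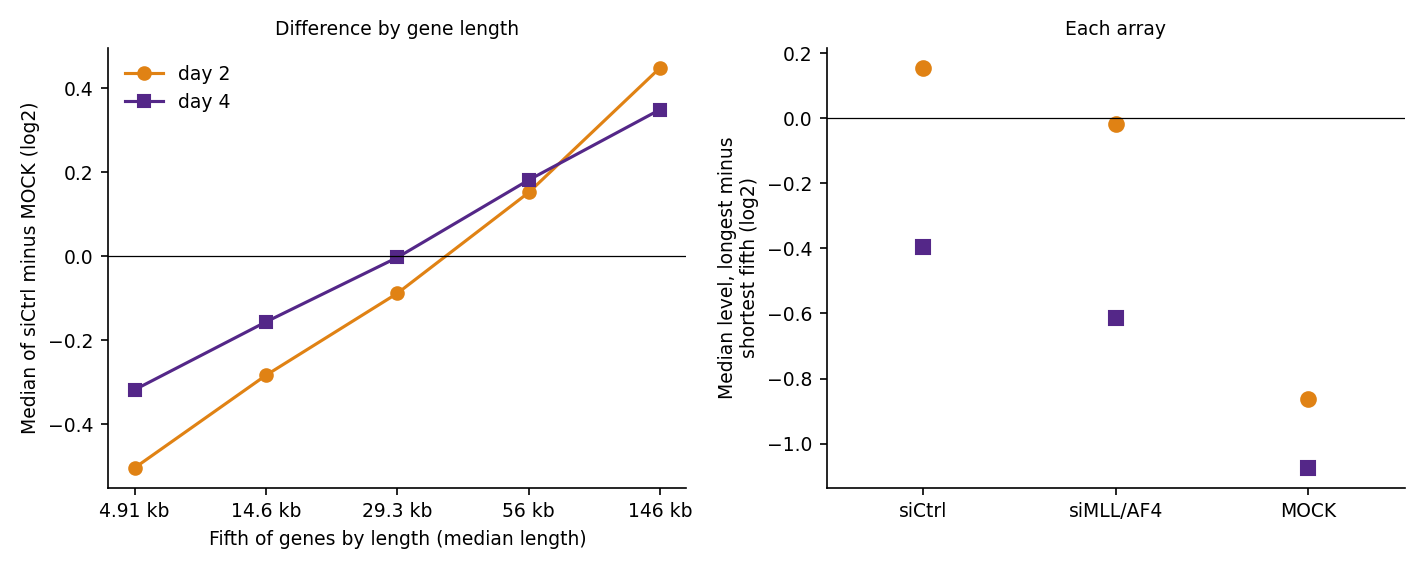
Left, the median of siCtrl minus MOCK (log2) in quintiles of genes by genomic length, labelled by their median length, on day 2 and day 4. Right, the median level of the longest minus the shortest quintile (log2) on each array, for siCtrl, siMLL/AF4 and MOCK. The line climbs from -0.50 to 0.45 on day 2, and the MOCK arrays (-0.86 and -1.07) lie below the siCtrl arrays (0.16 and -0.40).

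Probes without a value on some arrays were not tested, and they were spread evenly. A value on both siCtrl arrays and on neither MOCK array was given for 1254 probes (3.18%), and the reverse for 1282 (3.25%). The brightest probes read on both siCtrl arrays and neither MOCK array belonged to RGPD2 (6.45 and 5.42), CHD3, a remodelling ATPase (4.87 and 6.16), EDEM3, which trims glycans of misfolded proteins (5.04 and 5.68), KMT2E (5.31 and 5.22) and PIP5K1B, a lipid kinase (5.46 and 5.07). Those read on both MOCK arrays and neither siCtrl array belonged to RAMP2, a receptor partner (6.08 and 5.58), CFHR2 (5.95 and 5.22), ELP5 (5.14 and 5.31), the urate transporter SLC2A9 (5.99 and 4.26) and SMPD3, a sphingomyelinase (4.99 and 5.25). All of these levels lay above the lower quartile of the values, 3.50, and on both sides of the array median of 5.16. Several of the probes also had values on the siMLL/AF4 arrays, for example 4.37 and 3.82 for RGPD2 and 4.89 and 3.71 for RAMP2. Whether a missing entry is a level just below detection was not tested.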

How the data were processed

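Biotin-labelled total RNA of SEM cells was measured on Illumina arrays, per the labels, and the submitters' processing notes name GenomeStudio. Its version and the authors' normalization are not given in the sources used here. Deposited numbers were read as the natural log of intensity, which was inferred: the brightest probe would be 38664 on the linear scale to base e and 1512 to base 2. They were converted to log2, and a reading to base 2 would multiply every difference by 0.693. Entries marked Null were treated as missing. Of 39421 probes, 27210 had 1 gene symbol, 8 several and 12203 were not listed, and 27177 matched a RefSeq gene through their identifiers. Testing required values on 6 of 6 older arrays and a mean level not under the probe median (3.93), and the brightest of 12928 such probes stood for a gene. All columns mapped to a sample (0 unmapped).

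limma 3.58.1 in R 4.3.3 was fitted on the 6 arrays (siCtrl, siMLL/AF4 and MOCK on day 2 and day 4) with treatment and the day as a block, since the labels give the number as a shared day. It had 2 residual degrees of freedom, and p-values were two-sided with Benjamini-Hochberg adjustment at 0.05. In 10 simulations on 9668 genes with 200 changed, each gene's residual SD over the 6 arrays was taken as its true SD. That SD rests on 2 degrees of freedom, so the rates hold for that setting only. There, log2 changes of 1, 2 and 3 reached a limma adjusted p of 0.05 in 0%, 8.36% and 37.0% of the genes given them. On average 1 gene left unchanged did too. The number of arrays limits the precision.

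The comparison, the gene lists and the rules were chosen with earlier results of these data known. Named were the 12 genes of each sign with the largest smaller-day difference, the 8 of each sign with the smallest p, up to 5 members per list by size, members of the interferon, sensor and RNA interference lists, the KMT2A and AFF1 probes, the 5 widest genes of each sign on single days, the 5 widest of opposite sign, the 5 brightest probes read on both siCtrl and no MOCK arrays and 5 of the reverse, and the 8 of each sign in the brightest tertile. Unnamed loci were skipped. Alternatives changed the arrays fitted, the block, normalization, centring, offset, floor, filter, probe rule, variance model and log base, and left out arrays. Promoters and gene lengths are from RefSeq GRCh38.p14. Figures used matplotlib 3.10.9.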

Additional observations from a re-analysis of the deposited data

Results flagged for a closer look

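5 genes had differences siCtrl minus MOCK of opposite sign on the 2 days, each far over 2-fold on both. The difference between the days was not tested for any of them, since each day has 1 array per treatment. COL5A2, a fibrillar collagen chain, differed by 2.57 on day 2 and -2.86 on day 4, with 5.54 and 1.69 on the siCtrl arrays and 2.97 and 4.55 on the MOCK arrays. H3C11, a core histone gene, differed by 2.54 and -3.30. It was 1 of the 25 tested histone genes, of which 22 were higher on day 2 and 17 lower on day 4. SIN3B, a corepressor scaffold, differed by 2.33 and -2.21, with 7.58 and 4.03 on the siCtrl arrays and 5.25 and 6.24 on the MOCK arrays. SPPL3, a signal peptide peptidase relative, differed by 2.16 and -3.45. PARP10, a mono-ADP-ribosyltransferase, differed by 1.98 and -2.53. In all 5 the siCtrl array of day 4 was the lowest of the 4 values, between 1.54 and 4.03.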

How the results depend on the processing

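The count of genes past an adjusted p of 0.05 was 0 as designed and 0 with only the 4 siCtrl and MOCK arrays, with all 8 arrays, with offsets of 1 and 16, with no filter, with low values at the 25th percentile and with no replicate block, that is, without the day as a block. It was 543 (393 higher, 150 lower) with the filter at the 70th percentile, 871 (602 and 269) with an offset of 64, 821 (587 and 234) with a trended robust variance and 898 (613 and 285) with that variance and the stricter filter together, the last chosen after seeing the data. Between the offset of 64 and the trended robust variance 806 called genes were shared. Leaving out 1 array gave 0 to 26 genes past the adjusted p, the highest without MOCK of day 4 (replicate 2), and 838 to 1505 genes at an unadjusted p under 0.05, the lowest without MOCK of day 2 (838) and siCtrl of day 2 (930), where a lone array is assumed to vary like the other treatments. With no replicate block the unadjusted count was 1501, against 2084. Genes at least 2-fold apart on both days numbered 476 as designed, 306 with the filter at the 70th percentile, 276 with an offset of 16, 93 with an offset of 64 and 105 with values read as base 2. The gap by gene length, added after seeing the data, was 0.83 as designed, 0.58 with an offset of 64, 0.57 with values read as base 2, and 0.59 to 0.98 when 1 array was left out. Of 3105 values for named genes under the alternatives, 2836 kept their direction and their side of the threshold, 267 passed it, and 2 reversed: AGO3 was -0.080 with all 8 arrays and IFT43 was 0.12 without siCtrl of day 2. Of 444 list medians, 57 moved by more than the spread between the days. The causes were not tested.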

Other observations

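Families grouped by the start of their gene symbol were looked at after the values had been seen, and they are given as values. Over all genes, 33.3% were higher and 39.6% lower on both days, and 3.2% were at least 2-fold higher on both. Of 28 tested centrosomal CEP genes, 16 were higher and 3 lower on both days, and 5 were at least 2-fold higher on both. The CEP medians were 0.27 and 0.42. Of 27 kinesin KIF genes, 14 were higher and 4 lower, with medians of 0.93 and 0.19. Among 6 NBPF genes 5 were higher and 0 lower, although NBPF copies are nearly identical. The 312 zinc finger ZNF genes gave 129 higher and 80 lower, with medians of 0.03 and 0.26.

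Mitochondrial ribosomal proteins were mostly lower with control siRNA. Of all genes, 39.6% were lower and 33.3% higher on both days. For the large subunit (MRPL), 31 of 48 were lower and 6 higher on both days, with medians of -0.47 and -0.27, and for the small subunit (MRPS), 24 of 29 were lower and 1 higher, with medians of -0.51 and -0.23. Of 15 HLA genes, 13 were lower and 0 higher on both days, with medians of -0.58 and -0.50. The median lengths were 71.6 kb for CEP and 62.3 kb for KIF genes, and 8.19 kb for MRPL, 12.3 kb for MRPS and 5.41 kb for HLA genes.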
